A study of Mus musculus with 18 samples.

Results

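The genes described here encode matrix metalloproteinases, zinc-dependent proteases that cut collagen and other components of the extracellular matrix, and tissue inhibitors of metalloproteinases, which block them. Members were chosen by symbol for their relevance to joint tissue remodeling. The 10 members were *Mmp2*, *Mmp3*, *Mmp8*, *Mmp9*, *Mmp12*, *Mmp13*, *Mmp14*, *Mmp19*, *Timp1* and *Timp2*, of 24421 genes listed. All 10 had at least 1 read count in some library, and 8 of them were among the 10550 genes that passed a filter on low counts, with *Mmp3* and *Mmp13* left out. RNA was sequenced in bulk from macrophages of the synovium of WT C57BL/6 mice, sorted after enzymatic digestion into LYVE1+CX3CR1+ cells (from the MHCII- Ly6C- gate), MHCII+CD11c- cells and MHCII+CD11c+ cells. Mice were either controls without treatment or had received immune complexes (IC), ovalbumin bound by rabbit antibody, intravenously 8 h before the sort. Each of the 6 groups had 3 libraries, 18 in all, and each library pooled cells of several mice. Comparisons that use the same control or IC libraries are not independent of each other. The labels do not say which libraries of different subsets came from the same mice, so p-values measure the spread between these libraries only. In bulk RNA of a sorted population, fewer cells carrying a transcript and less transcript per cell cannot be told apart.

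As background, most matrix metalloproteinases are secreted or displayed as inactive proenzymes and act once a propeptide is removed. MMP14, anchored in the plasma membrane, activates pro-MMP2 in a complex that contains TIMP2, so that TIMP2 takes part in activation at low amounts and inhibits at higher ones. In joints, these enzymes are known for the breakdown of cartilage collagen and for remodeling of the synovial lining, and macrophages, fibroblasts, chondrocytes and neutrophils each make a different set of them. A transcript level does not measure the amount of active enzyme.

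The genes for *Mmp3*, *Mmp8*, *Mmp12* and *Mmp13* are neighbors in a cluster of metalloproteinase genes on mouse chromosome 9, and their levels in these macrophages ranged from 0 to 103 CPM (read counts scaled to a common library size by TMM). The promoters of these 4 genes, and that of *Mmp14*, whose transcript rose after IC, are shown to set the proximal sequence of silent and expressed members side by side. Each is the 100 bases before the annotated start, on the plus strand of GRCm38.p6, from RefSeq, with capitals marking the letters TGAGTCA or TGACTCA, a form of the AP-1 motif, and TATAAA, a form of the TATA box. Both strands were searched. The *Mmp12* window precedes a RefSeq start that lies inside the gene interval given below.
Mmp3 (chr9:7445722-7445821): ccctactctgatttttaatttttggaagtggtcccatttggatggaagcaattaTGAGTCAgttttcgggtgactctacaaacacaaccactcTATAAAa
Mmp8 (chr9:7558329-7558428): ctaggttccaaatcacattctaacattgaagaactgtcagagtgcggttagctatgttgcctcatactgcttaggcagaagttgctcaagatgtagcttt
Mmp12 (chr9:7347274-7347373): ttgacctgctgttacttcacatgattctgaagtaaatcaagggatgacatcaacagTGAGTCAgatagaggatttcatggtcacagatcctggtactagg
Mmp13 (chr9:7272414-7272513): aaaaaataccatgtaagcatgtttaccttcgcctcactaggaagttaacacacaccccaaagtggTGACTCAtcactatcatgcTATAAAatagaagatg
Mmp14 (chr14:54431498-54431597): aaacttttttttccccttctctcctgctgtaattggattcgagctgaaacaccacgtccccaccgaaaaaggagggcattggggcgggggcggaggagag
The AP-1 letters began 46, 44 and 35 bases before the start in *Mmp3*, *Mmp12* and *Mmp13*, and neither motif was found in these windows of *Mmp8* and *Mmp14*. Of 32851 mouse promoters of the same table, 4.46% held the AP-1 letters and 12.4% held TATAAA in windows of 250 bases before the start, longer than those printed. *Mmp3* and *Mmp13*, which hold both motifs, were the members with the fewest reads. A match describes the letters only. *Mmp2*, *Mmp9* and *Mmp19* are named without a sequence.

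Library totals ranged from 245903 to 2172358 counts, and the 2 shallowest libraries were both of MHCII+CD11c- cells after IC (245903 and 381217 counts). The sort gates were visible in the transcripts of untreated mice. *H2-Ab1*, an MHC class II gene, averaged 20.3 CPM in LYVE1+CX3CR1+ cells against 4626 and 7162 CPM in MHCII+CD11c- and MHCII+CD11c+ cells. *Itgax*, which encodes CD11c, averaged 1.71, 6.02 and 270 CPM in the same order, and *Lyve1* averaged 2372, 797 and 378 CPM. After IC, *Itgax* rose in MHCII+CD11c- cells (log2 fold change 2.75 ± 0.626 SE, edgeR adjusted p = 0.0261) and *Lyve1* rose in MHCII+CD11c+ cells (1.54 ± 0.282, edgeR adjusted p = 0.00881), so the transcripts behind both gates moved with treatment, and their part in the IC effects given here was not tested. Transcripts of neutrophils, a further source of metalloproteinases, were present at different levels. Summed over 13 neutrophil markers found in the files, of 14 listed, the level was 28.3 to 66.2 CPM in control and 48.5 to 228 CPM in IC libraries of LYVE1+CX3CR1+ cells, 873 to 2085 and 1728 to 4962 CPM in MHCII+CD11c- cells, and 85.5 to 782 and 1259 to 2774 CPM in MHCII+CD11c+ cells. *Mxd1* had the highest mean of the list in LYVE1+CX3CR1+ cells, where 8 markers were at 0 in all control libraries. *Ngp* had it in control MHCII+CD11c- cells and *S100a9* in the other groups. In the MHCII+CD11c+ control library at 85.5 CPM, *Mxd1* was at 57.9 and *Csf3r* at 15.8 CPM. Low sums thus rested mostly on these 2 genes.

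The largest contrast among members was between subsets. In untreated mice, LYVE1+CX3CR1+ macrophages had the highest *Timp2* and the lowest *Mmp9* and *Mmp19* of the 3 subsets, whereas MHCII+CD11c+ macrophages carried the most *Mmp19* and *Mmp12*. Between LYVE1+CX3CR1+ and MHCII+CD11c- cells, 4 of the 8 members tested passed an adjusted p of 0.05 in edgeR's quasi-likelihood test (1 higher and 3 lower in LYVE1+CX3CR1+ cells), where 11.4% of all genes tested did (4.32% higher and 7.12% lower). Between LYVE1+CX3CR1+ and MHCII+CD11c+ cells, 6 of 8 passed (3 higher, 3 lower) against 21.8% of all genes (9.48% and 12.4%), and between MHCII+CD11c+ and MHCII+CD11c- cells, 4 of 8 passed (2 higher, 2 lower in MHCII+CD11c+ cells) against 3.49% (1.89% and 1.6%). The median log2 difference over the 8 members was −0.59, −1.88 and −0.85 in these comparisons, and that over all genes lay between −0.02 and −0.01. After IC, 4 of the 8 members passed in the first comparison (1 higher, 3 lower) against 9.77% of all genes (3.32% and 6.45%), 6 in the second (1 higher, 5 lower) against 19.7% (8.21% and 11.5%), and 3 in the third (2 higher, 1 lower) against 2.84% (1.77% and 1.07%). Over all genes, the libraries of the groups compared did not overlap for 28.9%, 41.3% and 22.3% in controls and 25.1%, 38% and 16.8% after IC.

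**Figure D1:**
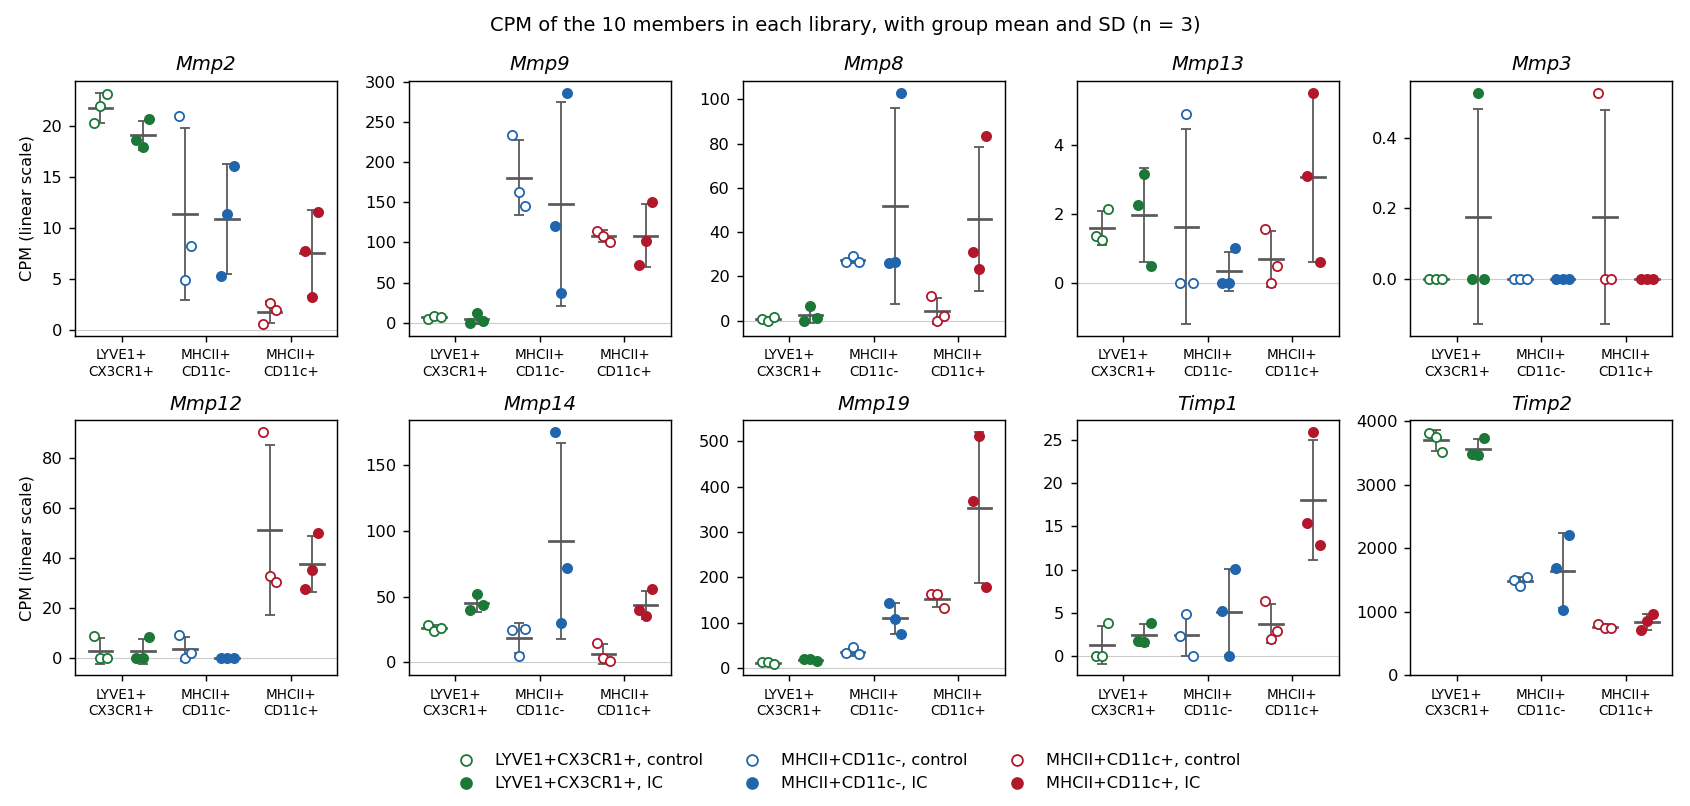
Level of each member (TMM-scaled CPM, linear axis) in the 18 libraries by subset and treatment, with each point a library, each line the mean of 3 and bars the SD. *Timp2* lies above 700 CPM in every library and the metalloproteinases differ between subsets by up to an order of magnitude or more.

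Fewer members changed with IC. Of the 8 members, 2 passed the test in MHCII+CD11c- cells, both higher, against 1.06% of all genes (0.55% higher, 0.512% lower). MHCII+CD11c+ cells had 3 of 8 past the test, all higher, against 0.673% of all genes (0.483% higher, 0.19% lower). In LYVE1+CX3CR1+ cells 0 of 8 members passed against 0.464% of all genes (0.246% higher, 0.218% lower), 0 had an unadjusted p under 0.05, and DESeq2 called 0. For the mean IC effect over the 3 subsets, 3 of 8 members passed, all higher, against 6.21% of all genes (3.12% higher, 3.09% lower). The counts over all genes behind the shares of single subsets depended on single libraries. The 49 genes called in LYVE1+CX3CR1+ cells became 13 without their IC replicate 1 and 96 without MHCII+CD11c- IC replicate 2. The 112 in MHCII+CD11c- cells became 52 without their control replicate 2 and 182 without IC replicate 2, and the 71 in MHCII+CD11c+ cells became 14 without their control replicate 2 and 138 without MHCII+CD11c- IC replicate 2. The median log2 change over the 8 members was 0.36, 0.61 and 1.67 in LYVE1+CX3CR1+, MHCII+CD11c- and MHCII+CD11c+ cells, and that over all genes was −0.02, −0.01 and −0.01. The difference in response between subsets was tested for every member, and 0 passed in any of the 3 pairs of subsets. Unadjusted p was under 0.05 for 1, 2 and 2 members, and DESeq2 called 0. Of all genes, 0, 1 and 1 passed (0.00948% where 1 did). An IC effect that passed in one subset and not in another is therefore not shown to differ between them.

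**Figure D2:**
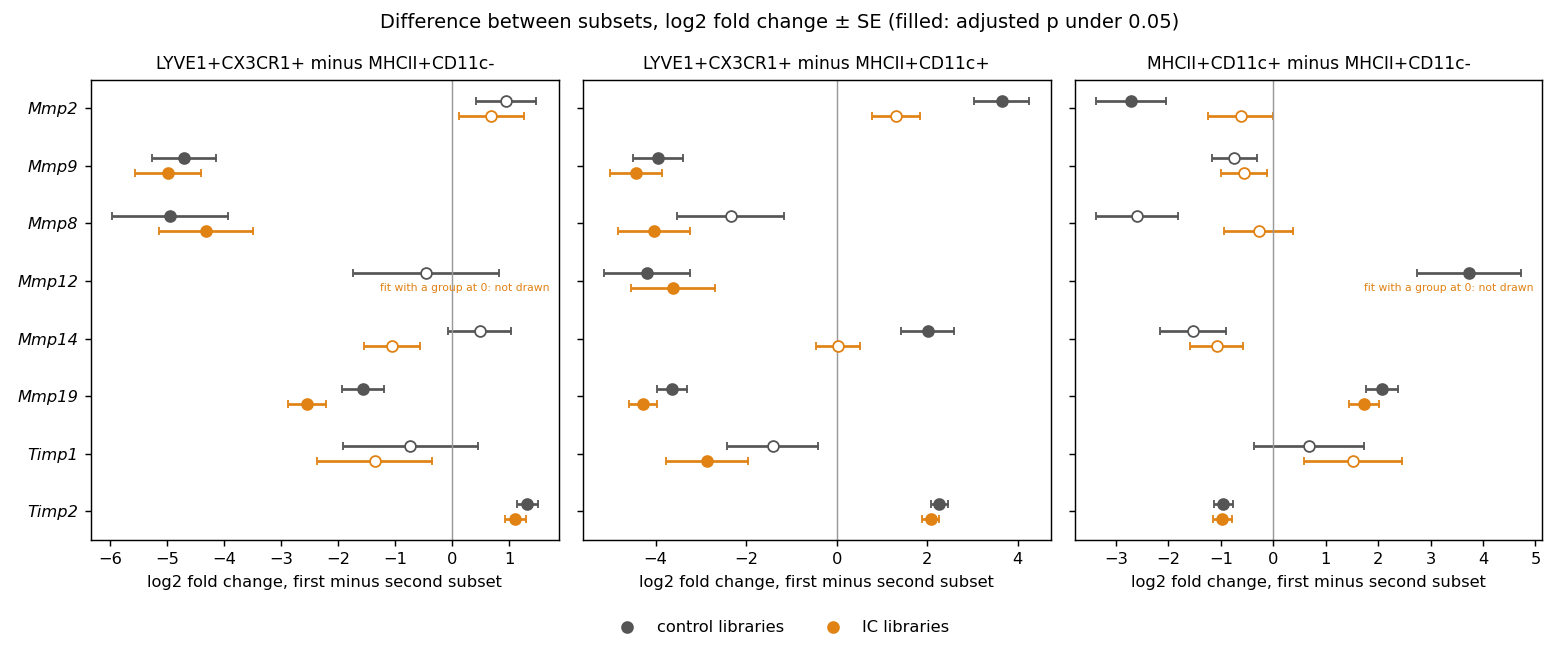
Difference between subsets in control and in IC libraries for the 8 members tested (log2 fold change with SE, edgeR), with filled points for an adjusted p under 0.05. *Timp2* lies to the LYVE1+CX3CR1+ side and *Mmp9* and *Mmp19* to the MHCII+ side before and after IC. *Mmp12* in comparisons with MHCII+CD11c- cells after IC, a group at 0 counts, is not drawn.

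The gelatinases MMP2 and MMP9 degrade denatured collagen and basement membrane collagen. *Mmp2* (chr8:92827291-92853420, GRCm38) was at 20.2, 21.9 and 23.2 CPM in the 3 control libraries of LYVE1+CX3CR1+ cells, with 30 to 43 counts each. In control MHCII+CD11c- cells it was at 20.9, 4.89 and 8.17 CPM, and in control MHCII+CD11c+ cells at 0.525, 2.63 and 1.93 CPM, which is 1 to 4 counts. The LYVE1+CX3CR1+ libraries thus lay above all MHCII+CD11c+ libraries, and 1 MHCII+CD11c- library reached their level. The difference was 12.5-fold against MHCII+CD11c+ cells (log2 3.65 ± 0.614, edgeR adjusted p = 6.35e-05) and did not pass against MHCII+CD11c- cells (0.94 ± 0.526, edgeR adjusted p = 0.302). MHCII+CD11c+ cells had 6.54-fold less *Mmp2* than MHCII+CD11c- cells (log2 −2.71 ± 0.662, edgeR adjusted p = 0.0187; −1.95 without MHCII+CD11c- control replicate 1), a call lost in 3 of the 18 fits that leave out 1 library (MHCII+CD11c- control replicate 1, and MHCII+CD11c+ control replicate 1 or 3) and with the neutrophil marker level described above as a covariate (−2.45, edgeR adjusted p = 0.185).

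After IC, *Mmp2* stayed at 18.6, 17.9 and 20.7 CPM in LYVE1+CX3CR1+ cells and was at 5.23, 11.3 and 16.0 CPM in MHCII+CD11c- cells. In MHCII+CD11c+ cells it was at 7.71, 3.15 and 11.6 CPM, each above the 3 control libraries, but the log2 change of 2.14 ± 0.672 did not pass (edgeR adjusted p = 0.183). With IC, the gap between LYVE1+CX3CR1+ and MHCII+CD11c+ cells did not pass either (1.32 ± 0.535, edgeR adjusted p = 0.0888), and the test of the difference in response between these subsets gave −2.33 ± 0.823 with an unadjusted p of 0.0089 and an adjusted p of 1.

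*Mmp9* (chr2:164940780-164955850) set the LYVE1+CX3CR1+ cells apart. It was at 4.72, 8.15 and 7.54 CPM in their control libraries, at 234, 163 and 145 CPM in MHCII+CD11c- cells and at 115, 109 and 100.3 CPM in MHCII+CD11c+ cells. No library of LYVE1+CX3CR1+ cells came near an MHCII+ library. The level was 25.9-fold lower than in MHCII+CD11c- cells (log2 −4.70 ± 0.562, edgeR adjusted p = 1.77e-06) and 15.5-fold lower than in MHCII+CD11c+ cells (−3.95 ± 0.557, edgeR adjusted p = 5.66e-06). The MHCII+ subsets did not overlap, as 22.3% of all genes did not in that comparison, but their difference did not pass (−0.74 ± 0.426 in MHCII+CD11c+ cells, edgeR adjusted p = 0.424).

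After IC, *Mmp9* was at 0, 12.7 and 2.40 CPM in LYVE1+CX3CR1+ cells, 120, 37.7 and 286 CPM in MHCII+CD11c- cells and 72.5, 102 and 151 CPM in MHCII+CD11c+ cells. These libraries spread more widely than the controls and overlapped with them in every subset. The log2 changes were −0.44 ± 0.745, −0.15 ± 0.439 and 0.04 ± 0.428, with edgeR adjusted p of 0.954, 0.92 and 0.993. LYVE1+CX3CR1+ cells stayed 31.8-fold below MHCII+CD11c- cells (log2 −4.99 ± 0.582, edgeR adjusted p = 1.36e-06) and 21.6-fold below MHCII+CD11c+ cells (−4.43 ± 0.575, edgeR adjusted p = 2.19e-06). Both gaps widened without LYVE1+CX3CR1+ replicate 2 (−6.86 and −6.29), and the first was −3.98 without MHCII+CD11c- replicate 3, still past the test. *Mmp9* is also made by neutrophils. In 1 control library of MHCII+CD11c+ cells (replicate 2), 5 of the 13 neutrophil markers were at 0, including *Ngp*. In the same library *S100a8* and *S100a9* had 1 count each and *Mmp9* had 165 counts. With the neutrophil marker level as a covariate, the difference between LYVE1+CX3CR1+ and MHCII+CD11c+ controls was −2.90 ± 0.578 (edgeR adjusted p = 9e-04) and that against MHCII+CD11c- controls was −2.58 ± 0.86 (edgeR adjusted p = 0.182). After IC these differences with the covariate were −2.51 (edgeR adjusted p = 0.0831) and −2.74 (edgeR adjusted p = 0.165). The covariate was added after seeing the data, and it differs strongly between the subsets itself. The part of neutrophils in the level of *Mmp9* was not tested.

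The collagenases MMP8 and MMP13 cleave fibrillar collagen. MMP8 is stored in neutrophil granules, whereas MMP13 is the main collagenase of mouse cartilage and bone. *Mmp8* (chr9:7558456-7568485) was at 0.674, 0 and 1.62 CPM in control LYVE1+CX3CR1+ cells, 26.7, 29.3 and 26.6 CPM in MHCII+CD11c- cells and 11.03, 0 and 1.93 CPM in MHCII+CD11c+ cells. MHCII+CD11c- cells were therefore even among replicates, and 1 MHCII+CD11c+ library held nearly all counts of its group (21 of 25). LYVE1+CX3CR1+ cells were 30.8-fold lower than MHCII+CD11c- cells (log2 −4.94 ± 1.02, edgeR adjusted p = 0.00178, and −6.03 without LYVE1+CX3CR1+ replicate 3), but with the neutrophil marker level as a covariate the value was 0.52 ± 1.55 (edgeR adjusted p = 0.955). The difference between the MHCII+ subsets, whose libraries did not overlap, did not pass (−2.60 ± 0.785, edgeR adjusted p = 0.0654), nor did that between LYVE1+CX3CR1+ and MHCII+CD11c+ cells (−2.34 ± 1.19, edgeR adjusted p = 0.184). The first of these passed with no filter (edgeR adjusted p = 2.12e-05), with the replicate block by presumed pool (0.0213), with 1 surrogate variable (0.0446), without the 2 shallowest libraries (0.0366), and without MHCII+CD11c- IC replicate 2 (0.0429) or MHCII+CD11c+ control replicate 1 (−4.54, edgeR adjusted p = 0.0115), and the second with no filter (0.0172).

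After IC, *Mmp8* was at 0, 6.85 and 1.44 CPM in LYVE1+CX3CR1+ cells and at 26.2, 26.4 and 103 CPM in MHCII+CD11c- cells. In MHCII+CD11c+ cells it was at 30.9, 23.6 and 83.5 CPM, with 20, 30 and 137 counts, above every control library of that subset. It rose 10.4-fold there (log2 3.37 ± 0.758, edgeR adjusted p = 0.0328). The change did not pass in MHCII+CD11c- cells (1.05 ± 0.689, edgeR adjusted p = 0.501), where replicate 3 carried it (−0.09 without that library), or in LYVE1+CX3CR1+ cells (1.68 ± 1.27, edgeR adjusted p = 0.815). After IC, LYVE1+CX3CR1+ cells were 20.0-fold below MHCII+CD11c- cells (log2 −4.32 ± 0.821, edgeR adjusted p = 0.000782) and 16.4-fold below MHCII+CD11c+ cells (−4.04 ± 0.803, edgeR adjusted p = 0.000527). With the neutrophil marker level as a covariate, these differences were 1.52 ± 1.26 (edgeR adjusted p = 0.703) and 0.9986 ± 1.11 (edgeR adjusted p = 0.754), so neither the call nor the direction held. Without LYVE1+CX3CR1+ replicate 2 they were −6.03 and −5.74, and without IC replicate 3 of the MHCII+ subset compared −3.16 and −3.19, all past the test.

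Neutrophil markers moved with *Mmp8* across the 18 libraries, but not within most of those of MHCII+CD11c- cells. In MHCII+CD11c- controls *Mmp8* was at 26.7, 29.3 and 26.6 CPM at marker sums of 2085, 873 and 897 CPM. In MHCII+CD11c- IC replicates 1 and 2 it was at 26.2 and 26.4 CPM at sums of 2071 and 1728 CPM. *Mmp8* was at 0 in the MHCII+CD11c+ control library that had the least neutrophil marker RNA of its subset (85.5 CPM), and highest in each MHCII+ subset in the IC library with the most (4962 and 2774 CPM). Of 11 neutrophil markers tested, 4 rose with IC in MHCII+CD11c+ cells (0.483% of all genes did), among them *S100a8* (log2 2.998 ± 0.66, edgeR adjusted p = 0.032) and *Lcn2* (3.54 ± 0.71, edgeR adjusted p = 0.0152). In MHCII+CD11c- and in LYVE1+CX3CR1+ cells edgeR called 0 (1.06% and 0.464% of all genes), with 6 at an unadjusted p under 0.05 and 1 called by DESeq2 in each. For the mean IC effect 7 passed, all higher, against 3.12% of all genes. With the neutrophil marker level as a covariate, the change of *Mmp8* in MHCII+CD11c+ cells was 0.64 ± 0.809 (edgeR adjusted p = 0.999) and the mean IC effect was −0.02 ± 0.538 (edgeR adjusted p = 1), against 2.04 ± 0.539 (edgeR adjusted p = 0.0212) without it. The genes whose log2 CPM followed *Mmp8* most closely across the 18 libraries, of 8835 compared, were *S100a9* (Pearson's r = 0.959), *S100a8* (0.955) and *Lcn2* (0.953), all of them on the neutrophil list. The part of neutrophils in the level of *Mmp8* was not tested. The 10.4-fold rise was also lost without MHCII+CD11c+ control replicate 2 or 3 or IC replicate 3 (log2 2.55 to 5.32, edgeR adjusted p up to 0.29 over all fits that leave out 1 library), in DESeq2 and with the replicate number as a block (3.22, edgeR adjusted p = 0.0519), and it was 5.32 without control replicate 1. The mean effect was lost without replicate 2 of LYVE1+CX3CR1+ control or IC, or IC replicate 3 of either MHCII+ subset (edgeR adjusted p up to 0.344), in DESeq2 and with the replicate block by pool (2.10, limma adjusted p = 0.0683).

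**Figure D3:**
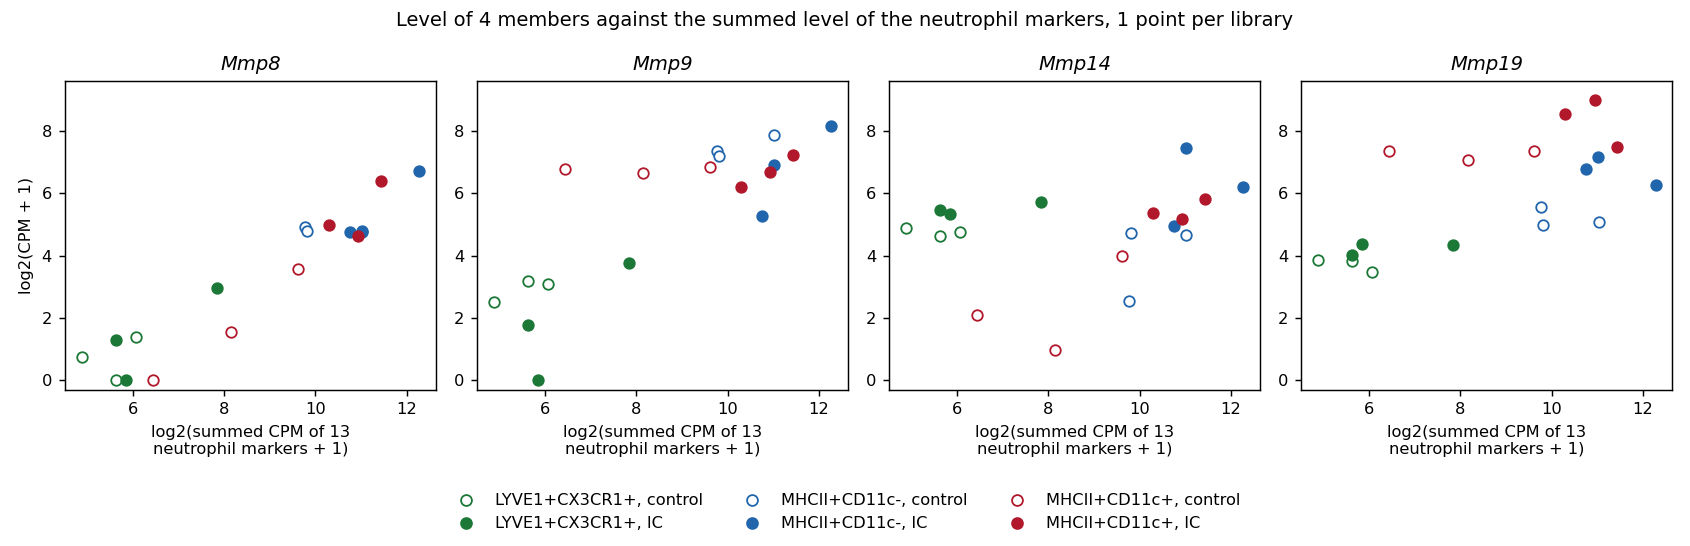
*Mmp8*, *Mmp9*, *Mmp14* and *Mmp19* in each of the 18 libraries (CPM) against the summed level of 13 neutrophil markers (CPM, log axes), colored by subset and treatment. *Mmp8* climbs with the marker sum over all libraries but is level in most MHCII+CD11c- libraries. *Mmp9* is near 109 CPM in the MHCII+CD11c+ control library whose marker sum is 85.5 CPM.

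*Mmp13* (chr9:7272514-7283331) did not pass the low-count filter and had 0 to 7 counts per library. Its total was 8, 11, 4, 1, 4 and 10 counts in LYVE1+CX3CR1+ control and IC, MHCII+CD11c- control and IC, and MHCII+CD11c+ control and IC cells, at group means of 0.334 to 3.07 CPM. *Mmp3*, stromelysin 1, which cuts proteoglycans and activates other proenzymes and is made mainly by fibroblasts in the joint, had 1 count in 1 LYVE1+CX3CR1+ IC library and 1 in 1 MHCII+CD11c+ control library, and 0 in the other 16. At 3 counts, the limit that a count of 0 allows, a library of these depths corresponds to 1.44 to 11.3 CPM. Transcripts of 16 listed fibroblast markers were present at uneven levels. *Prg4*, the lubricin gene of the lining, had 892 counts (601 CPM) in LYVE1+CX3CR1+ control replicate 1 and 0 to 89 counts in the other libraries. In that replicate, *Col1a1* had 17 counts, *Dcn* had 13, and 5 of the 16 markers were at 0. *Fn1* had the highest mean of the list in every group, and *Lum* was at 0 in all control LYVE1+CX3CR1+ libraries. The source of these transcripts was not tested.

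*Mmp12* (chr9:7344381-7369499), macrophage elastase, was a transcript of MHCII+CD11c+ cells. It was at 90.4, 32.9 and 30.4 CPM in their control libraries and 27.8, 35.4 and 50.0 CPM after IC. In LYVE1+CX3CR1+ cells it was at 8.76, 0 and 0 CPM in controls and 0, 0 and 8.64 CPM after IC. MHCII+CD11c- cells had it at 9.30, 0 and 2.04 CPM in controls and at 0 in all 3 IC libraries. The 6 MHCII+CD11c+ libraries lay above the other 12, and 8 of those 12 had no count. In controls, LYVE1+CX3CR1+ cells were 18.2-fold lower (log2 −4.19 ± 0.952, edgeR adjusted p = 0.0019) and after IC 12.3-fold lower (−3.62 ± 0.923, edgeR adjusted p = 0.00584) than MHCII+CD11c+ cells. Each of these groups of LYVE1+CX3CR1+ cells had all its counts in 1 library, and the differences were −9.09 without control replicate 1 and −8.64 without IC replicate 3 of that subset, against −4.46 to −3.48 and −3.78 to −3.03 without any other single library, past the test throughout. Against MHCII+CD11c- controls, MHCII+CD11c+ cells were 13.3-fold higher (3.73 ± 0.994, edgeR adjusted p = 0.0363, and 5.42 without MHCII+CD11c- replicate 1). After IC they were at least 22.3-fold higher than MHCII+CD11c- cells, taking 3 counts over that group as its floor (1.82 CPM, edgeR adjusted p = 0.0314). The call between the MHCII+ controls was lost without MHCII+CD11c- replicate 2 or 3 or MHCII+CD11c+ replicate 1 or 2, and that after IC without MHCII+CD11c- replicate 1 or 3 or MHCII+CD11c+ replicate 2 or 3. DESeq2 called *Mmp12* in no comparison, and with the neutrophil marker level as a covariate edgeR adjusted p was 0.0729, 0.496 and 0.0866 for the first 3 of these differences. Dendritic cell markers were also highest in MHCII+CD11c+ cells, but they were not ordered like *Mmp12* in the other subsets. *Mmp12* overlapped between LYVE1+CX3CR1+ and MHCII+CD11c- cells in both treatments (log2 −0.46 ± 1.28 in controls, edgeR adjusted p = 0.881), whereas the markers lay higher in MHCII+CD11c- cells. Summed over 10 dendritic cell markers, the level was 12.8 to 24.2 CPM in LYVE1+CX3CR1+, 226 to 266 in MHCII+CD11c- and 585 to 688 in MHCII+CD11c+ controls, and 3.38 to 23.5, 128 to 260 and 423 to 448 CPM after IC. Of 8 tested in controls, 8 were lower in LYVE1+CX3CR1+ than in MHCII+CD11c+ cells (12.4% of all genes) and 7 were lower than in MHCII+CD11c- cells (7.12%). In MHCII+CD11c+ cells 4 were higher than in MHCII+CD11c- cells (1.89%). None of the 10 was at 0 throughout the control libraries of an MHCII+ subset, whereas *Flt3* and *Ccr7* were at 0 in those of LYVE1+CX3CR1+ cells. After IC, *Clec9a* was at 0 in all libraries of both MHCII+ subsets, *Xcr1* in those of MHCII+CD11c- cells, and 6 of the 10 in those of LYVE1+CX3CR1+ cells. *Cd24a* had the highest mean of the list in every group except MHCII+CD11c+ controls, where *Cd209a* did. The part of these transcripts in *Mmp12* was not tested. IC gave no passing change in MHCII+CD11c+ cells (log2 −0.42 ± 0.741, edgeR adjusted p = 0.945). *Mmp12* shares 157 exon bases with *Mmp1b* on the opposite strand, which had 0 counts in every library.

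*Mmp14* (chr14:54431612-54445364), the membrane-type metalloproteinase that cleaves pericellular collagen, rose with IC. In LYVE1+CX3CR1+ cells it was at 28.3, 23.8 and 25.8 CPM in controls and 39.5, 51.7 and 43.2 CPM after IC. Levels in MHCII+CD11c- cells were 24.4, 4.89 and 25.5 CPM in controls and 175, 30.1 and 72.1 CPM after IC. Levels in MHCII+CD11c+ cells were 14.7, 3.29 and 0.965 CPM in controls and 40.1, 35.4 and 55.4 CPM after IC. Every IC library lay above every control library of its subset in all 3 subsets. Groups did not overlap for 19.1%, 14.2% and 18.5% of all genes in LYVE1+CX3CR1+, MHCII+CD11c- and MHCII+CD11c+ cells. The rise was 5.01-fold in MHCII+CD11c- cells (log2 2.33 ± 0.56, edgeR adjusted p = 0.0381) and 6.85-fold in MHCII+CD11c+ cells (2.78 ± 0.579, edgeR adjusted p = 0.0181), and did not pass in LYVE1+CX3CR1+ cells (0.78 ± 0.489, edgeR adjusted p = 0.738). The mean over the 3 subsets was 3.89-fold (1.96 ± 0.315, edgeR adjusted p = 0.000273) and passed in each of the 18 fits that leave out 1 library.

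The rise of *Mmp14* in single subsets was less firm. In MHCII+CD11c- cells it was lost in 8 of the 18 fits that leave out 1 library, namely without any 1 of the 3 MHCII+CD11c- controls, MHCII+CD11c- IC replicate 1, or LYVE1+CX3CR1+ replicate 2 or 3 of either treatment (log2 1.59 to 2.66, edgeR adjusted p 0.00913 to 0.185), and without the 2 shallowest libraries, leaving 1 IC library there, it was 1.96 ± 0.61 (edgeR adjusted p = 0.155). The fit to only the libraries compared did not call it either, nor did the replicate block by pool (2.31, limma adjusted p = 0.0584). In MHCII+CD11c+ cells it was lost without control replicate 2 or 3 or IC replicate 3 (2.23 to 4.41, the highest without control replicate 1, edgeR adjusted p up to 0.135). With the neutrophil marker level as a covariate it was 1.98 ± 0.587 in MHCII+CD11c- cells (edgeR adjusted p = 0.127), 2.01 ± 0.744 in MHCII+CD11c+ cells (edgeR adjusted p = 0.741) and 1.49 ± 0.419 for the mean (edgeR adjusted p = 0.0917). Monocyte markers also moved: of 10 tested, 2 rose with IC in each MHCII+ subset, with *Plac8* among them in both. Of all genes, 0.55% rose in MHCII+CD11c- and 0.483% in MHCII+CD11c+ cells. In LYVE1+CX3CR1+ cells edgeR called 0 monocyte markers (3 at an unadjusted p under 0.05, 0 by DESeq2), against 0.464% of all genes. Their summed level was 2875 to 3390 CPM in control and 3417 to 3935 CPM in IC libraries of MHCII+CD11c- cells, 2374 to 2985 and 2551 to 3453 CPM in MHCII+CD11c+ cells, and 3078 to 3744 and 3578 to 4001 CPM in LYVE1+CX3CR1+ cells. *F13a1* had the highest mean of the list in every group. In controls, 7 of the 10 were lower and 1 higher in LYVE1+CX3CR1+ than in MHCII+CD11c- cells (7.12% and 4.32% of all genes). Against MHCII+CD11c+ controls, 8 were lower and 2 higher (12.4% and 9.48%). *Ly6c2* and *Chil3* were at 0 in all control LYVE1+CX3CR1+ libraries, and no monocyte marker was at 0 throughout an MHCII+ group. The part of monocytes in the rise of *Mmp14* was not tested.

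Between subsets, untreated LYVE1+CX3CR1+ cells had 4.04-fold more *Mmp14* than MHCII+CD11c+ cells (log2 2.01 ± 0.583, edgeR adjusted p = 0.0126), a call lost without MHCII+CD11c+ control replicate 2 or 3, and a value of 3.65 without replicate 1. After IC that difference was 0.02 ± 0.485 (edgeR adjusted p = 0.983), and the libraries of all 3 subsets overlapped. The difference in response between LYVE1+CX3CR1+ and MHCII+CD11c+ cells was −1.99 ± 0.759, with an unadjusted p of 0.0146 and an adjusted p of 1 in edgeR.

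*Mmp19* (chr10:128790910-128800824), a secreted metalloproteinase with basement membrane substrates, was ordered by subset. It was at 13.5, 13.2 and 10.2 CPM in control LYVE1+CX3CR1+ cells, 32.6, 46.5 and 30.7 CPM in MHCII+CD11c- cells and 163, 163 and 133 CPM in MHCII+CD11c+ cells, and no library of one subset reached the next. After IC it was at 19.7, 19.5 and 15.4 CPM, 144, 109 and 76.1 CPM, and 369, 512 and 180 CPM in the same order. Ranked by mean, the 6 groups ran from LYVE1+CX3CR1+ control and IC through MHCII+CD11c- control and IC to MHCII+CD11c+ control and IC. Only MHCII+CD11c- IC and MHCII+CD11c+ control libraries overlapped among neighbors in that order. The order of the subsets was also that of the summed dendritic cell markers given above, which were lower in the IC than in the control libraries of MHCII+CD11c+ cells, and their part in the levels of *Mmp19* was not tested.

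In untreated mice *Mmp19* was 2.96-fold lower in LYVE1+CX3CR1+ than in MHCII+CD11c- cells (log2 −1.57 ± 0.364, edgeR adjusted p = 0.00469) and 12.4-fold lower than in MHCII+CD11c+ cells (−3.64 ± 0.325, edgeR adjusted p = 4.15e-09), and MHCII+CD11c+ cells had 4.2-fold more than MHCII+CD11c- cells (2.07 ± 0.303, edgeR adjusted p = 0.000204). With IC, it rose 2.91-fold in MHCII+CD11c- cells (1.54 ± 0.331, edgeR adjusted p = 0.0183) and 2.30-fold in MHCII+CD11c+ cells (1.20 ± 0.261, edgeR adjusted p = 0.0259). In LYVE1+CX3CR1+ cells the libraries did not overlap but the change did not pass (0.57 ± 0.361, edgeR adjusted p = 0.743). The mean rise of 2.15-fold (1.10 ± 0.185, edgeR adjusted p = 0.000435) passed in all 18 fits that leave out 1 library, and with the neutrophil marker level as a covariate (1.27 ± 0.252, edgeR adjusted p = 0.0101).

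Single libraries and the covariate decided the smaller calls on *Mmp19*. With the covariate, the difference between LYVE1+CX3CR1+ and MHCII+CD11c- controls was −2.03 (edgeR adjusted p = 0.108). The rise in MHCII+CD11c- cells was lost without control replicate 1 or 3 or IC replicate 1 (log2 1.27 to 1.79, edgeR adjusted p up to 0.103) and without the 2 shallowest libraries (1.08 ± 0.404, edgeR adjusted p = 0.249), in the fit to only the libraries compared and with the replicate block by pool (1.44, limma adjusted p = 0.192). The rise in MHCII+CD11c+ cells was lost without any 1 of the 3 control libraries or IC replicate 1 or 2 (0.80 to 1.51, edgeR adjusted p up to 0.285), and with the neutrophil marker level as a covariate (1.47 ± 0.388, edgeR adjusted p = 0.359). *Mmp19* shares 789 exon bases with *Tmem198b* and 212 with *Gm47093* on the opposite strand, and the strand setting of the counting is not given in the sources used here. *Tmem198b* passed in none of the comparisons of subsets or of IC with control, with −1.53 ± 0.57 (edgeR adjusted p = 0.188) for IC in MHCII+CD11c- cells and 0.17 ± 0.435 (edgeR adjusted p = 0.966) in MHCII+CD11c+ cells.

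**Figure D4:**
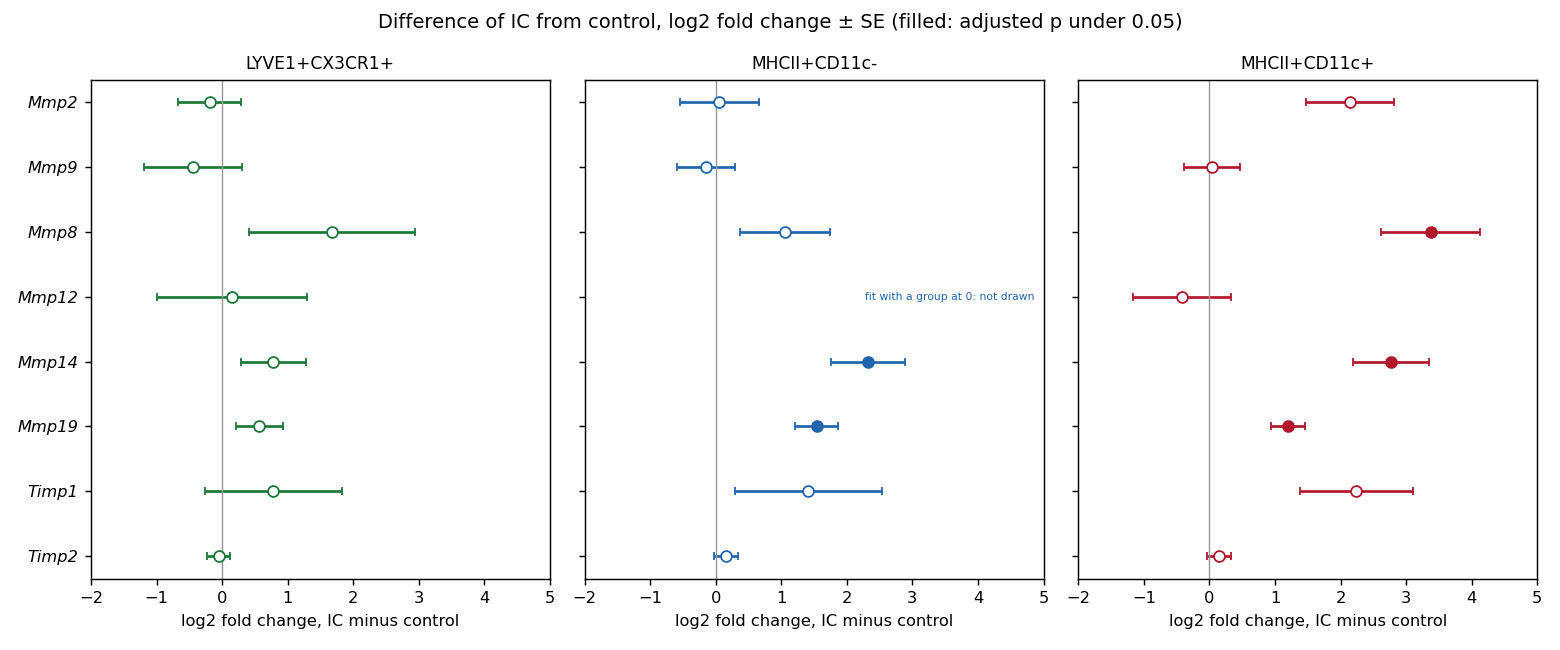
Change with IC in each of the 3 subsets for the 8 members tested (log2 fold change with SE, edgeR), with filled points for an adjusted p under 0.05. *Mmp12* in MHCII+CD11c- cells, where the IC group was at 0 counts, is not drawn. *Mmp14* and *Mmp19* lie above 0 in every subset and pass in both MHCII+ subsets, and *Timp2* lies between −0.05 and 0.16.

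Of the inhibitors, *Timp2* (chr11:118301069-118355740, minus strand) was the most abundant member in every library, at 3818, 3761 and 3520 CPM in control LYVE1+CX3CR1+ cells, 1501, 1406 and 1542 CPM in MHCII+CD11c- cells and 808, 748 and 741 CPM in MHCII+CD11c+ cells. After IC it was at 3479, 3473 and 3743 CPM, 1694, 1028 and 2207 CPM, and 711, 860 and 960 CPM in the same order. The subsets were separated by gaps, and control and IC libraries overlapped within each subset. LYVE1+CX3CR1+ cells had 2.49-fold more than MHCII+CD11c- controls (log2 1.32 ± 0.183, edgeR adjusted p = 1.72e-05) and 4.83-fold more than MHCII+CD11c+ controls (2.27 ± 0.188, edgeR adjusted p = 1.2e-09), and MHCII+CD11c+ cells had 1.94-fold less than MHCII+CD11c- cells (−0.95 ± 0.183, edgeR adjusted p = 0.00259). With the neutrophil marker level as a covariate the first and second were 1.73 ± 0.347 (edgeR adjusted p = 0.00581) and 2.495 ± 0.25 (edgeR adjusted p = 6.61e-08), and the last was −0.77 (edgeR adjusted p = 0.0989).

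With IC, the change of *Timp2* was −0.05 ± 0.179 in LYVE1+CX3CR1+, 0.16 ± 0.182 in MHCII+CD11c- and 0.14 ± 0.182 in MHCII+CD11c+ cells on the log2 scale (edgeR adjusted p = 0.981, 0.745 and 0.909). These were the smallest standard errors of any member, on 273 to 7794 *Timp2* counts per library. The differences between subsets after IC were 2.16-fold (log2 1.11 ± 0.183, edgeR adjusted p = 0.000163), 4.22-fold (2.08 ± 0.188, edgeR adjusted p = 6.01e-09) and 1.96-fold (−0.97 ± 0.184, edgeR adjusted p = 0.00276) in the order of the control values, and the last was lost in the fit to only the libraries compared. The genes closest to *Timp2* in log2 CPM over the 18 libraries were *Arsb* (Pearson's r = 0.984), *Pmepa1* (0.98) and *Emp1* (0.976).

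*Timp1* (chrX:20870166-20874735), the inducible inhibitor, was scarce, with 0 to 33 counts per library. In LYVE1+CX3CR1+ cells it was at 0, 0 and 3.77 CPM in controls and 1.69, 1.58 and 3.84 CPM after IC, and in MHCII+CD11c- cells at 2.33, 4.89 and 0 CPM and 5.23, 0 and 10.01 CPM. In MHCII+CD11c+ cells it was at 6.30, 1.97 and 2.89 CPM in controls and 15.4, 25.95 and 12.8 CPM after IC, so only there did every IC library exceed every control library. That change of 2.24 ± 0.864 on the log2 scale did not pass (edgeR adjusted p = 0.342). After IC, LYVE1+CX3CR1+ cells had 7.30-fold less *Timp1* than MHCII+CD11c+ cells (log2 −2.87 ± 0.899, edgeR adjusted p = 0.0236), a call lost in 3 of the 18 fits that leave out 1 library (LYVE1+CX3CR1+ IC replicate 1 or 2, or MHCII+CD11c+ IC replicate 2) and with the neutrophil marker level as a covariate (−1.04, edgeR adjusted p = 0.868). In controls the difference was −1.41 ± 1.01 (edgeR adjusted p = 0.381).

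To compare levels between genes, CPM was divided by the kilobases of annotated exon. On this scale *Timp2* averaged 950 CPM per kb in control LYVE1+CX3CR1+ cells, 381 in MHCII+CD11c- and 197 in MHCII+CD11c+ cells. The highest metalloproteinase was *Mmp2* in control LYVE1+CX3CR1+ cells (6.46 CPM per kb), *Mmp9* in control MHCII+CD11c- cells (51.0) and *Mmp19* in control MHCII+CD11c+ cells (43.3, against 30.5 for *Mmp9*). After IC, *Mmp19* averaged 100 CPM per kb in MHCII+CD11c+ cells and *Timp1* 20.3, close to *Mmp8* at 19.0. The leading protease thus differed among the 3 subsets, while *Timp2* led in all of them.

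Summed per kb over the 8 metalloproteinases, the level was 17.5 ± 0.466 CPM per kb (SD, n = 3) in control and 22.1 ± 4.65 in IC libraries of LYVE1+CX3CR1+ cells, 80.3 ± 15.7 and 113 ± 50.8 in MHCII+CD11c- cells, and 84.5 ± 13.6 and 166 ± 27.6 in MHCII+CD11c+ cells. In MHCII+CD11c+ cells the control libraries spanned 71.9 to 99.0 and the IC libraries 148 to 197, without overlap. The inhibitor sum was 951 ± 38.2 and 918 ± 40.9, 383 ± 15.2 and 427 ± 157, and 201 ± 12 and 237 ± 32.4 CPM per kb in the same order. *Timp2* made up 97.9% to 98.2% of all member counts in control LYVE1+CX3CR1+ libraries and 53.6% to 63.8% in MHCII+CD11c+ IC libraries. The inhibitor sum therefore exceeded the metalloproteinase sum in every group by mean, with the smallest distance in MHCII+CD11c+ cells after IC.

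**Figure D5:**
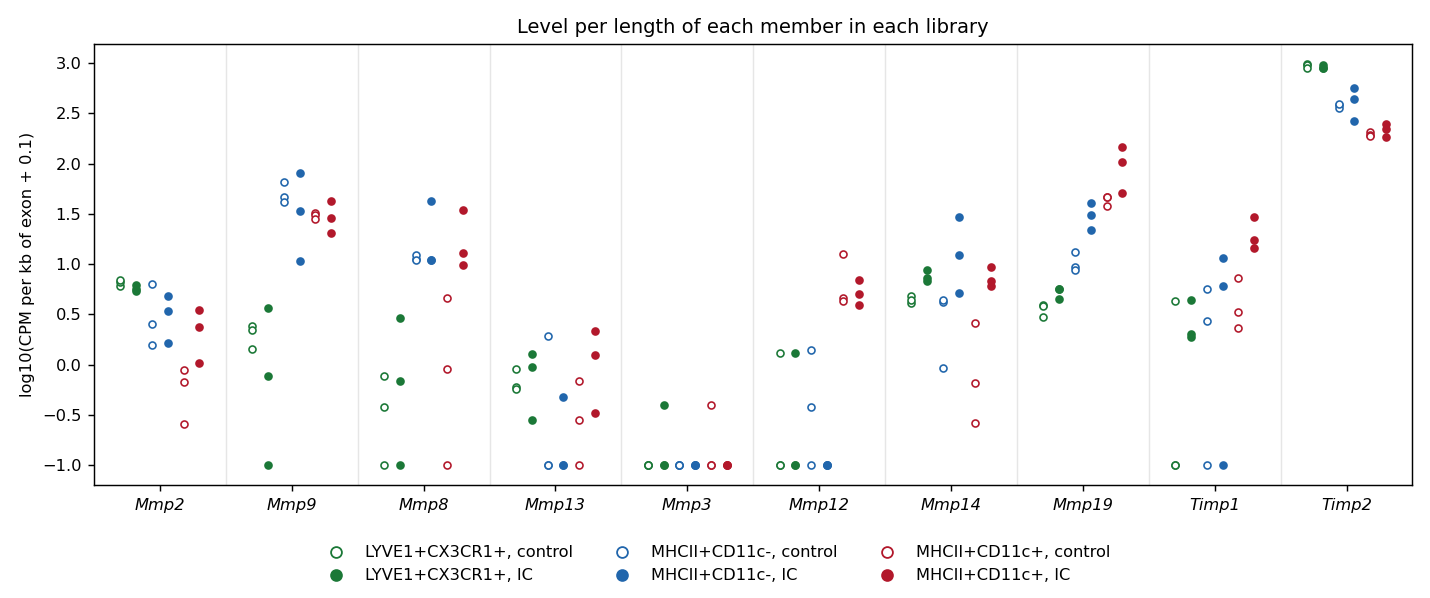
Level per kilobase of exon (CPM per kb, log axis) of each member in the 6 groups, with each point a library. *Timp2* is highest in all groups, and *Mmp19* and *Mmp9* lead the proteases of MHCII+ cells.

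The other members of both families were mostly silent. Of 17 further Mmp and Timp genes, 12 had any count and 3 passed the low-count filter, *Mmp25*, *Mmp28* and *Timp3*. *Mmp25*, a membrane-anchored protease known from leukocytes, had 0 counts in all control LYVE1+CX3CR1+ libraries and 1.02 to 17.4 CPM in MHCII+CD11c- and 3.38 to 15.8 CPM in MHCII+CD11c+ controls, and differed from both (edgeR adjusted p = 0.00297 and 0.000772). *Mmp28* (epilysin) averaged 12.7 ± 3.93 CPM in control LYVE1+CX3CR1+ and 2.70 ± 0.64 CPM in MHCII+CD11c+ cells (SD, n = 3), a 4.56-fold difference (log2 2.19 ± 0.678, edgeR adjusted p = 0.0196) on 13 to 28 and 4 to 7 counts per library. *Timp3*, the matrix-bound inhibitor, averaged 7.94, 8.87 and 7.85 CPM in control and 0.508, 2.00 and 1.03 CPM in IC libraries of LYVE1+CX3CR1+, MHCII+CD11c- and MHCII+CD11c+ cells. It fell in the mean IC effect (log2 −2.87 ± 0.736, edgeR adjusted p = 0.0175), on 0 to 29 counts per library.

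Among 10 tested genes that activate, anchor, induce or clear metalloproteinases (16 listed), 4 were higher and 2 lower in control LYVE1+CX3CR1+ than in MHCII+CD11c+ cells, where 9.48% of all genes were higher and 12.4% lower, with a median log2 difference of 0.34 against −0.02 over all genes. *Itgav*, the integrin αv subunit, was 4.22-fold higher (log2 2.08 ± 0.223, edgeR adjusted p = 9.15e-08) and *Thbs2*, which promotes the clearance of MMP2, 7.15-fold higher (2.84 ± 0.583, edgeR adjusted p = 0.000614). *Cd44*, a docking receptor for MMP9 and MMP14, was 2.22-fold lower (−1.15 ± 0.148, edgeR adjusted p = 1.52e-06), and *Furin*, the convertase that activates MMP14, 1.59-fold lower (−0.67 ± 0.175, edgeR adjusted p = 0.00561). Between LYVE1+CX3CR1+ and MHCII+CD11c- controls 2 were higher (*Itgav* and *Lrp1*), against 4.32% of all genes. Between the MHCII+ controls 1 was higher (*Cd44*) and 1 lower (*Itgav*) in MHCII+CD11c+ cells, against 1.89% and 1.6%. For the mean IC effect, *Thbs1* rose 2.98-fold (1.58 ± 0.384, edgeR adjusted p = 0.0126) and *Cd44* was lower (−0.32 ± 0.0857, edgeR adjusted p = 0.0238).

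Of 8 tested plasminogen system genes (12 listed), which feed the activation of several proenzymes through plasmin, 3 were lower in control LYVE1+CX3CR1+ than in MHCII+CD11c+ cells, against 12.4% of all genes. *Plaur*, the urokinase receptor, was 1.57-fold lower (log2 −0.65 ± 0.23, edgeR adjusted p = 0.0441), and *S100a10* and *Anxa2*, which together form a plasminogen receptor on the cell surface, were 1.55-fold (−0.63 ± 0.158, edgeR adjusted p = 0.00417) and 1.47-fold lower (−0.55 ± 0.153, edgeR adjusted p = 0.00906). Both were also higher in control MHCII+CD11c+ than in MHCII+CD11c- cells, by 1.68-fold (0.75 ± 0.159, edgeR adjusted p = 0.00673) and 1.64-fold (0.71 ± 0.154, edgeR adjusted p = 0.00747).

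Of 11 tested ADAM, ADAMTS and ADAMTS-like genes (20 listed), not all of which encode active proteases, 3 were higher and 2 lower in control LYVE1+CX3CR1+ than in MHCII+CD11c+ cells, against 9.48% and 12.4% of all genes. The 3 were *Adamtsl5*, 3.88-fold higher (log2 1.96 ± 0.342, edgeR adjusted p = 1e-04), *Adam9*, 1.97-fold (0.97 ± 0.171, edgeR adjusted p = 0.000102), and *Adam15*, 1.56-fold (0.64 ± 0.194, edgeR adjusted p = 0.0167), and the 2 lower were *Adam8* and *Adam23*. *Adam8* was at 14.4 ± 1.82 CPM in LYVE1+CX3CR1+, 90.5 ± 74.7 in MHCII+CD11c- and 344 ± 76.3 in MHCII+CD11c+ controls (SD, n = 3), ordered like *Mmp19*. *Adam23* had counts in all 6 MHCII+CD11c+ libraries, at 10.5 to 26.8 CPM, and 1 count in the other 12. *Adam9* was the 1 gene of the list that rose in the mean IC effect (log2 0.62 ± 0.1, edgeR adjusted p = 0.000331), where 3.12% of all genes rose. Of 8 tested genes of collagen uptake and lysosomal collagen breakdown (10 listed), 7 were higher and 1 lower in control LYVE1+CX3CR1+ than in MHCII+CD11c+ cells, against the same shares of all genes, with a median of 0.58 against −0.02 over all genes. *Ctsk*, the collagen-degrading cathepsin K, was 3.91-fold higher (1.97 ± 0.605, edgeR adjusted p = 0.0187) and *Mfge8* 3.16-fold higher (1.66 ± 0.339, edgeR adjusted p = 0.00059), while *Mrc1*, a mannose receptor that binds collagen, was 1.44-fold lower (−0.53 ± 0.168, edgeR adjusted p = 0.0226). With IC, *Ctsl* rose in MHCII+CD11c- cells (0.91 ± 0.174, edgeR adjusted p = 0.00829), and *Ctsl*, *Mrc1* and *Lgmn* rose in the mean effect by 0.63, 0.36 and 0.32.

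The genes most like each other member in log2 CPM over the 18 libraries, of 8835 or 8836 compared, were as follows by Pearson's r. For *Mmp2* they were *Cflar* (0.914), *Layn* (0.907) and *Sparc* (0.893), and for *Mmp9* *Cd79a* (0.948), *Tlr9* (0.94) and *Cd209g* (0.94). For *Mmp12* they were *Sept11* (0.919), *Actg1* (0.91) and *Uhrf1* (0.906). For *Mmp19* they were *Actr3* (0.94), *Ptprc* (0.934) and *Fabp5* (0.929). For *Mmp14*, *Bst1* (0.828) and *Atp2a2* (0.811) were among the nearest, and *Timp1* had *Llph* (0.922), *Hsp90b1* (0.826) and *Ifi30* (0.825). The libraries share subsets, treatment and depth, so these values describe likeness only.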

How the data were processed

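RNA of 18 pooled, sorted samples was made into stranded total RNA libraries. Per the labels and the study's methods, the authors trimmed reads with Trim Galore, checked them with FastQC, aligned them to mm10 with HISAT2 and counted them per gene with featureCounts; versions, annotation, strand setting and treatment of reads matching several genes are not given in the sources used here. The deposited values are raw read counts per gene symbol, without normalization. A combined table held the same counts (0 differences) and was not used.

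The counts were scaled by TMM and expressed as CPM (edgeR 4.0.16, R 4.3.3). Genes were kept by filterByExpr (minimum count 10, minimum total count 15), which left 10550 of 24421. Groups were taken from the sample labels. For the 13 comparisons, 1 quasi-likelihood model of edgeR was fitted to the 6 groups of 18 libraries. The p-values were adjusted over the 10550 genes by Benjamini-Hochberg, with a threshold of 0.05. The SE is the log2 fold change divided by the square root of F. A count of 0 was bounded by 3 counts, per library for a level and over the group for a fold. With 3 libraries per group and 245903 to 2172358 counts per library, the floors cover counting error only, while SEs and p-values rest on the spread between libraries. The tests were tried on simulated counts first. Replicates of a group differed by more than sampling noise (chi-square per gene 3.42 to 7.8).

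Members and gene lists (other Mmp and Timp genes, partners, plasminogen system, ADAM and ADAMTS family, collagen uptake, neutrophil, monocyte, dendritic cell and fibroblast markers) were chosen with earlier results of these data known. All members were named, and of each list the genes past the threshold, or where more than 3 passed the extremes of log2 fold change in each direction; other genes named, such as sort markers, *Prg4*, *Tmem198b* and *Adam23*, were chosen after their values were seen. A few genes that the rules would name are left out of the text. Likeness is Pearson's r over genes whose log2 CPM (prior count 2) averaged 3 or more. Gene intervals and exon lengths are from GENCODE M21 (GRCm38) and promoters from RefSeq.

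Alternatives were DESeq2 1.42.0 (size factors and Wald test), no filter, at least 10 counts in every library, only the libraries compared, a replicate block by number or by presumed pool (limma 3.58.1), 1 surrogate variable (sva 3.50.0), counts without *Rn45s* and each library left out. The neutrophil marker covariate and the fit without the 2 shallowest libraries were chosen after seeing the data.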

Additional observations from a re-analysis of the deposited data

How the results depend on the processing

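Of 104 log2 fold changes of members, 35 passed the threshold, and 24 of these passed in every fit that left out 1 library. Over 2914 values from the alternatives, 2746 kept their sign and side of the threshold, 73 lost the call and 15 gained one. The others changed sign or reached 0. Of them, 66 belonged to 26 member values that lay within 1 SE of 0 and had not passed, 46 of them with 1 library left out. The remaining 14 belonged to values called or more than 1 SE from 0. Of the 14, 9 came with the neutrophil marker covariate: *Mmp8* was 0.52 and 1.495 for LYVE1+CX3CR1+ minus MHCII+CD11c- and minus MHCII+CD11c+ controls, 1.52 and 0.9986 for the same comparisons after IC, −0.85 for IC in MHCII+CD11c- cells and −0.0196 for the mean IC effect. *Mmp9* was 0.33 for MHCII+CD11c+ minus MHCII+CD11c- controls, and *Mmp14* and *Timp1* were 0.49 and 0.81 for LYVE1+CX3CR1+ minus MHCII+CD11c- cells after IC. The other 5 came with 1 library left out, and none of these had passed. *Mmp12*, which reached 0 without turning, ran from 0 to 5.599 for LYVE1+CX3CR1+ minus MHCII+CD11c- cells after IC, *Mmp9* from −0.92 to 0.42 for MHCII+CD11c+ minus MHCII+CD11c- cells after IC, *Mmp8* from −0.0499 to 2.78 for IC in LYVE1+CX3CR1+ and from −0.0915 to 1.37 for IC in MHCII+CD11c- cells, and *Timp1* from −2.05 to 2.495 for the IC response of LYVE1+CX3CR1+ minus MHCII+CD11c+ cells. The cause was not tested.

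Members called for IC in MHCII+CD11c- cells went from 2 to 0 with only the libraries compared, with the replicate block by pool and without the 2 shallowest libraries, and spanned 0 to 2 over fits leaving out 1 library. For IC in MHCII+CD11c+ cells they spanned 0 to 3. With at least 10 counts in every library only *Mmp19* and *Timp2* could be tested, and calls were 2 in each comparison of LYVE1+CX3CR1+ cells with an MHCII+ subset and between MHCII+ controls, and 1 for IC in each MHCII+ subset and for the mean. With the neutrophil covariate, calls were 1 in LYVE1+CX3CR1+ against MHCII+CD11c- controls, 1 between MHCII+ controls, 2 and 2 for LYVE1+CX3CR1+ cells against the MHCII+ subsets after IC, 1 and 0 for IC in MHCII+CD11c- and MHCII+CD11c+ cells and 1 for the mean. *Timp2* between MHCII+ subsets after IC was lost with only the libraries compared.

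The labels do not say that a replicate number marks shared mice. Of 18 pairs with the same treatment and number, 1 correlated over 0.1 (−0.0455 to 0.132, median 0.036), though 16 of 18 libraries were closest to a same-numbered library of another subset, a hint from the data. With the number as a replicate block, members called were 4, 6 and 4 between subsets in controls, 4, 6 and 3 after IC, 0, 2 and 2 for IC in LYVE1+CX3CR1+, MHCII+CD11c- and MHCII+CD11c+ cells and 3 for the mean; *Mmp8* in MHCII+CD11c+ cells was lost.

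Counts over all genes moved by more than 1.5 times mostly for IC effects. In LYVE1+CX3CR1+, MHCII+CD11c- and MHCII+CD11c+ cells the test called 49, 112 and 71 genes, DESeq2 158, 280 and 154, no filter 160, 337 and 250, the surrogate variable 99, 206 and 133, only the libraries compared 272, 19 and 170, the fit without the 2 shallowest libraries 112, 54 and 144, and the neutrophil covariate 23 and 6 in the first and last. The replicate block by pool called 111 and 186 genes there. With 1 library left out, counts spanned 187 to 612 between MHCII+ controls (368 with all), 609 to 1091 for LYVE1+CX3CR1+ against MHCII+CD11c- cells after IC (1031) and 167 to 313 between MHCII+ subsets after IC (300), and 0 to 3 for the differences in response. Depth limits *Mmp3*, *Mmp13*, *Timp1* and *Mmp12*, with few counts per library.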
